A study of Solanum lycopersicum with 4 samples.

Results

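The B-class MADS-box genes of tomato (Solanum lycopersicum) are 4 of the 33976 genes quantified here: TAP3 (Solyc04g081000), TM6 (Solyc02g084630), TPI (Solyc08g067230) and TPIB (Solyc06g059970). They were picked by gene ID, and all 4 were found and passed the filter on low counts. RNA sequencing of floral apices and closed flower buds was done on 2 libraries of 156OE, which is MT overexpressing the microRNA miR156, and on 2 libraries of MT, the background genotype. The sources used here do not give the promoter of the miR156 construct, the number of independent lines, the number of plants per RNA sample or the genome build. The replicates are described only as RNA replicates of a genotype, so p-values measure the spread between these libraries, which may be technical.

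B-class proteins are transcription factors that give petals and stamens their identity. In Arabidopsis and Antirrhinum a protein of the APETALA3 (AP3) lineage pairs with one of the PISTILLATA (PI) lineage, and the pair acts together with SEPALLATA proteins, and in stamens also with a C-class protein. Loss of B function turns petals towards sepals and stamens towards carpels. Tomato has a pair of genes in each lineage: TAP3 and TM6 belong to the AP3 lineage, TPI and TPIB to the PI lineage. TM6 represents an older branch of the AP3 lineage that Arabidopsis has lost. SBP-box transcription factors, the targets of miR156, act earlier, in the change to flowering and in meristems.

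The names rest on unequal evidence. The files give IDs only, and a pair of name and ID was compared with the gene order of the RefSeq gene table (assembly SLM_r2.1). TAP3, listed there as DEF, and TM6, listed as TDR6, lay on the chromosome their IDs name and at a like place in the gene order. For the PI-lineage genes the table disagreed with the names used here: its symbol TPI is on chromosome 6, at relative place 0.416 of the gene order, where Solyc06g059970 has place 0.415, and not on chromosome 8. Below, TPI always means Solyc08g067230 and TPIB always means Solyc06g059970.

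The libraries held 8440384 and 1685657 assigned reads in 156OE replicates 1 and 2, and 11203505 and 9369713 in MT replicates 1 and 2. Counts of 3 reads, taken as the floor, are 1.78 CPM (reads scaled to the library's total) in 156OE replicate 2 and 0.268 to 0.355 CPM in the other libraries. In both genotypes the replicates differed beyond counting noise: chi-square over its degrees of freedom was 19.95 across 18575 genes in 156OE and 3.97 across 19435 genes in MT. The replicate 1 to replicate 2 ratio of CPM lay above 3 in 2.69% and below one in 3 in 2.77% of tested genes in 156OE, against 0.239% and 0.0489% in MT. 156OE replicate 2 thus has the fewest reads, and the 156OE libraries stand further apart from each other than the MT libraries do.

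Transcripts of all 4 B-class genes were detected in every library, and their levels in the 156OE libraries lay on both sides of those in MT. In 156OE replicate 1 each gene was above both MT libraries, and in 156OE replicate 2 each was below both, in TPM (the level corrected for transcript length) and in CPM, except that TM6 in 156OE replicate 2 was above both with TMM scaling. None of the 4 passed the test between the genotypes with all libraries. The size of the gap between the 156OE libraries differed widely within the class: it was largest for TAP3 and TPIB, intermediate for TPI and smallest for TM6. Since the RNA is from bulk tissue, fewer petal and stamen primordia in a sample and less RNA per cell cannot be told apart.

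TAP3, the AP3-type gene whose loss in tomato makes petals sepal-like and stamens carpel-like, had 41.9 and 3.70 TPM in 156OE replicates 1 and 2, against 14.6 and 19.9 TPM in MT replicates 1 and 2. These values came from 330 and 6 reads in 156OE and from 147 and 165 reads in MT. The 156OE libraries thus lay above and below both MT values. At the mean MT level, 156OE replicate 2 would have held 25.9 reads, while the 95% Poisson interval of its 6 reads runs from 2.2 to 13.1. Within each library TAP3 stood above 79.4% and 19.5% of the genes with reads in 156OE, against 51.8% and 59.4% in MT.

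TM6, the other AP3-lineage gene, known in tomato mainly for its part in stamens, had 68.5 and 43.2 TPM in 156OE, against 51.3 and 49.5 TPM in MT. It was the most abundant B-class transcript in every library. Its reads numbered 516 and 67 in 156OE, against 495 and 393 in MT, and the 67 reads of 156OE replicate 2 have a Poisson interval of 51.9 to 85.1, which holds the 72.6 reads expected there at the MT level. The place of 156OE replicate 2 relative to MT depended on the scaling for this gene alone among the 4: with TMM, a scaling that corrects for library composition, TM6 had 59.4 and 43.7 scaled CPM in 156OE, against 42.7 and 40.6 in MT.

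TPI, a PI-lineage gene, had 48.3 and 12.7 TPM in 156OE, against 34.9 and 34.2 TPM in MT. Its reads numbered 239 and 13 in 156OE, against 223 and 179 in MT. The 13 reads have a Poisson interval of 6.92 to 22.2, below the 32.9 reads that the MT level would give in that library. The MT libraries were almost level for this gene, at 34.6 ± 0.477 TPM (SD, n = 2), whereas 156OE averaged 30.5 ± 25.2 TPM (SD, n = 2).

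TPIB, the other PI-lineage gene, had 33.3 and 4.03 TPM in 156OE, against 15.1 and 20.4 TPM in MT. Its reads numbered 200 and 5 in 156OE, against 117 and 130 in MT, and the Poisson interval of the 5 reads is 1.62 to 11.7 where the MT level would give 20.5. The order and spacing of its libraries were close to those of TAP3, including the higher value in MT replicate 2 than in MT replicate 1. Poisson intervals cover counting error only.

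**Figure D1:**
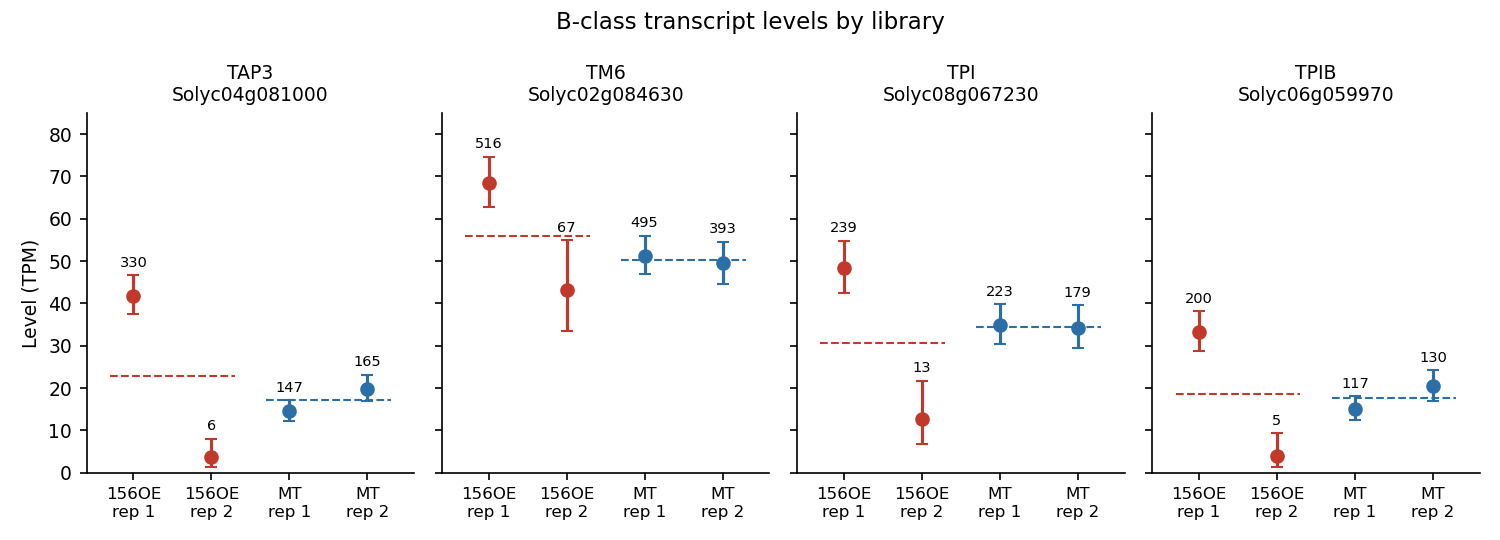
Level in TPM (vertical axis) of each B-class gene in every library. Points are single libraries with 95% Poisson intervals of their reads, the number above each point is its rounded read count, and dashed lines are group means; for each gene the 156OE libraries lie on either side of the MT libraries.

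In the order of levels in MT, TM6 at 50.4 ± 1.28 TPM came first and TPI at 34.6 ± 0.477 TPM second (SD, n = 2 each). TPIB at 17.8 ± 3.77 TPM and TAP3 at 17.2 ± 3.78 TPM followed and did not differ beyond their spread. In 156OE replicate 1 TM6 and TPI again came first and second, and the intervals of TPI (42.4 to 54.9 TPM) and TAP3 (37.5 to 46.6 TPM) overlapped. In 156OE replicate 2 the order was TM6, TPI, TPIB and TAP3, and the intervals of TPIB (1.31 to 9.41 TPM) and TAP3 (1.36 to 8.05 TPM) covered nearly the same range.

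The question whether miR156 overexpression alters B-class transcript levels was put to edgeR's quasi-likelihood test over 18385 genes. In that test 0 of the 4 genes passed an adjusted p of 0.05, and over all tested genes 0.00544% did. The log2 change of TAP3 was 0.70 ± 0.76 (SE; 95% interval -1.25 to 2.64; edgeR adjusted p = 0.741). That of TM6 was 0.34 ± 0.17 (interval -0.10 to 0.77; edgeR adjusted p = 0.504). For TPI it was 0.08 ± 0.46 (interval -1.09 to 1.25; edgeR adjusted p = 0.981), and for TPIB 0.39 ± 0.67 (interval -1.32 to 2.09; edgeR adjusted p = 0.859). At an unadjusted p under 0.05 the count was also 0 of 4, beside 11.4% of all tested genes. DESeq2, which called 1.01% of the genes it adjusted, also called 0 of 4. The intervals of TAP3 and TPIB hold every value from -1.25 to 2.09 on the log2 scale, so these libraries do not exclude changes of that size. The median log2 change of the 4 genes was 0.36, beside 0.01 over all tested genes.

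The estimates turned on which 156OE library was kept. Without 156OE replicate 2, edgeR called 3.45% of genes higher and 2.28% lower, and 3 of the 4 B-class genes rose: TAP3 by 1.36 ± 0.18 (edgeR adjusted p = 0.000826), TPIB by 0.98 ± 0.20 (edgeR adjusted p = 0.0141) and TM6 by 0.51 ± 0.14 (edgeR adjusted p = 0.0452) on the log2 scale. TPI had a log2 change of 0.54 ± 0.16 there (edgeR adjusted p = 0.0722). Without 156OE replicate 1, edgeR called 8.16% of genes higher and 2.48% lower, and of the 4 TAP3 alone passed, with a log2 change of -1.92 ± 0.51 (edgeR adjusted p = 0.0322). TPIB had -1.84 ± 0.54 (edgeR adjusted p = 0.0526), TPI -1.16 ± 0.34 (edgeR adjusted p = 0.0512) and TM6 0.07 ± 0.19 (edgeR adjusted p = 0.872) in that fit. In these fits the lone 156OE library is assumed to vary as the MT pair does, and both share the same MT libraries. Without MT replicate 1 or without MT replicate 2, edgeR called 0% of all genes and 0 of the 4.

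**Figure D2:**
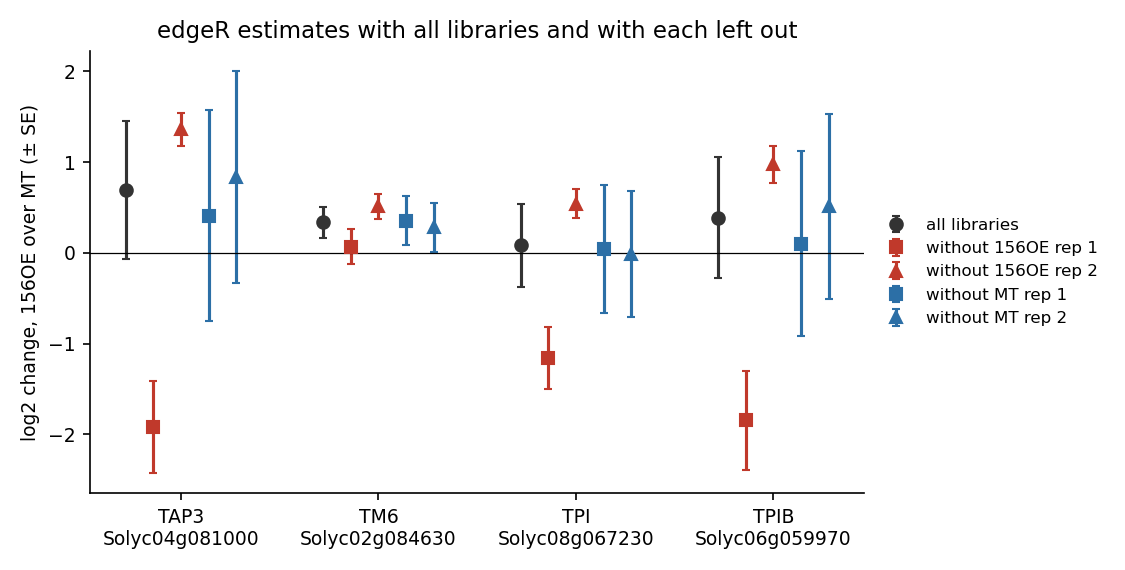
Log2 change of 156OE over MT (vertical axis, edgeR estimate ± SE) for each B-class gene, with all libraries and with each library left out. TAP3, TPI and TPIB lie above 0 without 156OE replicate 2 and below 0 without 156OE replicate 1, while TM6 stays between 0.07 and 0.51.

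The 4 genes shared a direction of difference between the 156OE libraries but not its size. The CPM of TAP3 was 10.97 times as high in 156OE replicate 1 as in replicate 2 (95% binomial interval 4.99 to 30.1), a ratio above that of 99.9% of tested genes when 0.5 CPM was added to both values. The ratio was 7.99 for TPIB (3.37 to 24.9; above 99.7% of tested genes), 3.67 for TPI (2.11 to 6.997; above 98.2%) and 1.54 for TM6 (1.19 to 2.01; above 82.3%). The intervals of TAP3 and TPIB do not reach that of TM6. In MT the replicate 1 to replicate 2 ratio was 0.743 for TAP3 and 0.753 for TPIB, above those of 4.64% and 5.35% of tested genes, and 1.05 for TM6 and 1.04 for TPI. TAP3 and TPIB thus had like ratios in both genotypes, and TM6 and TPI had like ratios within MT. The pattern of 156OE replicate 1 above and replicate 2 below both MT libraries was shown by 4 of 4 B-class genes and by 17.1% of tested genes in CPM, and by 3 of 4 and 11.9% with TMM scaling.

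Paralogue shares followed from these unequal gaps. Of the AP3-lineage transcripts, TAP3 made up 37.9% and 7.88% of the TPM in 156OE replicates 1 and 2, against 22.1% and 28.7% in MT. As shares of reads these were 39.0% (95% Clopper-Pearson interval 35.7 to 42.4%) and 8.22% (3.08 to 17.0%) in 156OE, against 22.9% (19.7 to 26.3%) and 29.6% (25.8 to 33.5%) in MT. The intervals of both 156OE libraries lie outside those of both MT libraries, on opposite sides. Of the PI-lineage transcripts, TPI made up 59.2% and 76.0% of the TPM in 156OE, against 69.8% and 62.6% in MT. Its share of the 18 PI-lineage reads in 156OE replicate 2 was 72.2% with an interval of 46.5 to 90.3%, which takes in the shares of reads in the other libraries (54.4% in 156OE, against 65.6% and 57.9% in MT).

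As log2 ratios within each library, TAP3 over TM6 averaged -2.11 ± 1.98 in 156OE and -1.56 ± 0.35 in MT (SD, n = 2 each; two-sided exact permutation p = 1). TPI over TPIB averaged 1.09 ± 0.78 in 156OE and 0.97 ± 0.33 in MT (two-sided exact permutation p = 1). The ratio of the summed AP3 lineage to the summed PI lineage was 0.44 and 1.48 on the log2 scale in 156OE, against 0.40 and 0.34 in MT. Here both 156OE libraries lay above both MT libraries, replicate 1 only just, and the two-sided exact permutation p was 0.3333, the smallest that 2 against 2 libraries allow. Adjusted over the 3 ratios it was 1. In plain shares, the AP3 lineage gave 57.5% and 73.7% of all B-class TPM in 156OE, against 56.8% and 55.9% in MT. Its share of reads in 156OE replicate 1 was 65.8% (Clopper-Pearson interval 63.2 to 68.4%), which takes in the MT shares of 65.4% and 64.4%. In 156OE replicate 2 it was 80.2% (70.6 to 87.8%) of 91 reads, so the gap to MT rests on that library.

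**Figure D3:**
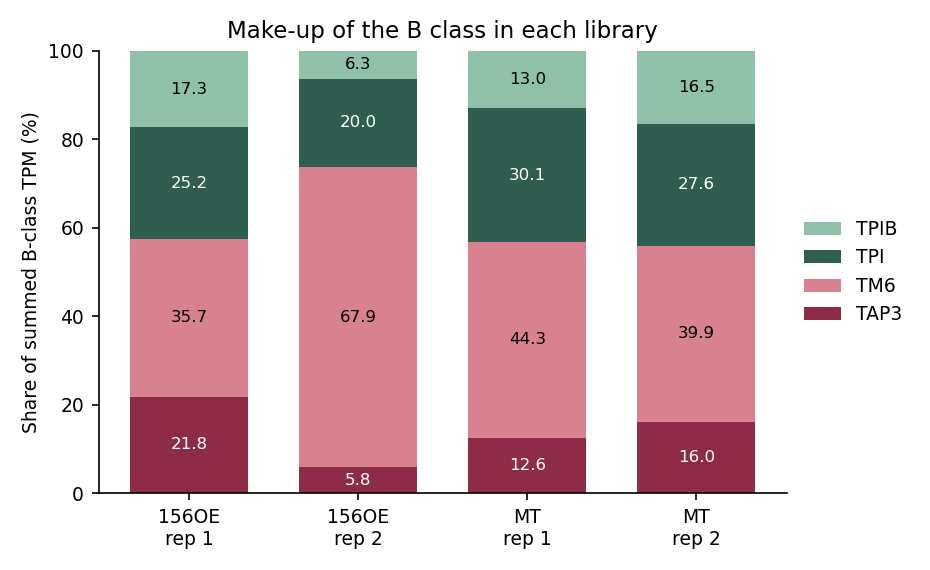
Share of the summed B-class TPM (vertical axis, percent) held by each gene in each library. TM6 takes 67.9% in 156OE replicate 2 and 35.7 to 44.3% in the other libraries, and TAP3 takes 5.81% there and 12.6 to 21.8% in the others.

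Summed over the 4 genes, B-class transcripts came to 192 and 63.7 TPM in 156OE, against 116 and 124 TPM in MT, with 1285 and 91 reads behind the sums in 156OE. The 156OE libraries again lay on either side of MT. The log2 ratio of the group means was 0.19 in CPM and 0.09 in TPM, and since the sum is over chosen genes it carries no test.

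Ratios across the lineages were described after their values had been seen. TAP3 over TPIB in TPM was 1.26 and 0.918 in 156OE, against 0.964 and 0.974 in MT, a range of 1.37 times over the 4 libraries. It was the steadiest of the 6 pairs. TM6 over TPI, the other pair across lineages made of the more abundant genes, was 1.42 and 3.39 in 156OE, against 1.47 and 1.45 in MT, so it was steady in 3 libraries and higher in 156OE replicate 2. The paralogues TAP3 and TM6 were the least steady pair, with a range of 7.14 times. Measured as the root mean square distance of log2(CPM + 0.5) profiles over the 4 libraries, each centred on its mean, TAP3 and TPIB lay 0.184 apart. Of 18385 tested genes, 1 lay nearer to TAP3 and 8 lay nearer to TPIB. TAP3 and TM6 were 0.993 apart, with 3723 genes nearer to TAP3. These profiles rest on 6 and 5 reads of TAP3 and TPIB in 156OE replicate 2.

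Most of the other listed genes that specify floral organs were also split between the 156OE libraries. Of 12 listed organ identity genes outside the B class, 9 had a name that matched the gene order and 8 of these were tested; MBP3, an ovule-type gene, had too few reads. In edgeR 0 of 8 passed with all libraries, beside 0.00544% of all tested genes. Without 156OE replicate 2 the log2 changes of the 8 ran from -0.55 (LIN) to 0.99 (TAG1). Without 156OE replicate 1 they ran from -1.77 (TAG1, with 5 reads in 156OE replicate 2) to -0.60 (TM5). All 8 had a higher CPM in 156OE replicate 1 than in replicate 2. Over all tested genes the median of that ratio was 1.14 (0.5 CPM added to both values), so this direction was the commoner one. Of the 8, 5 lay above both MT libraries in 156OE replicate 1 and below both in replicate 2, beside the 17.1% of all tested genes given above. The median log2 change of the 8 was -0.02. LIN, a SEPALLATA-type gene and the lowest of the 8 in p, had 21.5 and 8.07 TPM in 156OE, against 34.4 and 31.1 TPM in MT (log2 change -0.87 ± 0.34; edgeR adjusted p = 0.441), below MT in both 156OE libraries.

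Among the listed genes with a checked name, the 5 whose profile over the 4 libraries was nearest to the mean B-class profile were floral organ MADS-box genes. TM29, a SEPALLATA-type gene, was nearest at a distance of 0.235, with 75.2 and 22.6 TPM in 156OE, against 64.5 and 64.1 TPM in MT. TAG1, the C-class gene of stamens and carpels, followed at 0.237, with 23.9 and 3.02 TPM in 156OE, against 11.9 and 13.3 TPM in MT. Its level in 156OE replicate 2 came from 5 reads. The SEPALLATA-type genes EJ2 (0.250) and TM5 (0.260) and the C-lineage gene TAGL1 (0.308; 2 reads in 156OE replicate 2, below the floor) came next. The sixth was the leaf gene CAB-3C at 0.312, which took the place of TAGL1 among the 5 nearest when the added count was 2 in place of 0.5. Of all tested genes 0.495% lay as near to the B class as TM29, and 1.35% as near as TAGL1. The nearest IDs without a name were Solyc08g007130 and Solyc01g107590, at 0.0428 and 0.0734. The members themselves lay at 0.155 (TPI), 0.274 (TPIB), 0.420 (TAP3) and 0.584 (TM6), so many non-members were nearer to the class mean than TAP3 or TM6.

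TM5 is of the SEPALLATA3 type, which in Arabidopsis joins B-class pairs into larger complexes. The summed B-class TPM was 1.91 and 1.80 times that of TM5 in 156OE, against 1.86 and 1.81 times in MT, a range of 1.06 times over the 4 libraries. Of the 18381 tested genes outside the class, TM5 was the one with the steadiest ratio to the summed B class in TPM. The counting interval of the ratio in 156OE replicate 2, from 91 and 56 reads, runs from 1.28 to 2.56, so the closeness of the 4 ratios is finer than the reads can fix. This ratio was picked after its values had been seen. Single members were less steady against TM5: the ratio of TAP3 to TM5 was 0.417 and 0.105 in 156OE, against 0.234 and 0.290 in MT, and that of TM6 was 0.683 and 1.22 in 156OE, against 0.825 and 0.722 in MT. Against TAG1, TPIB was the steadiest member at 1.39 and 1.34 in 156OE, against 1.27 and 1.54 in MT, and TM6 the least steady at 2.87 and 14.3 in 156OE, against 4.30 and 3.72 in MT. In 156OE replicate 2 TAG1 and TPIB had 5 reads each, so the ratios to TAG1 in that library are only loosely fixed.

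**Figure D4:**
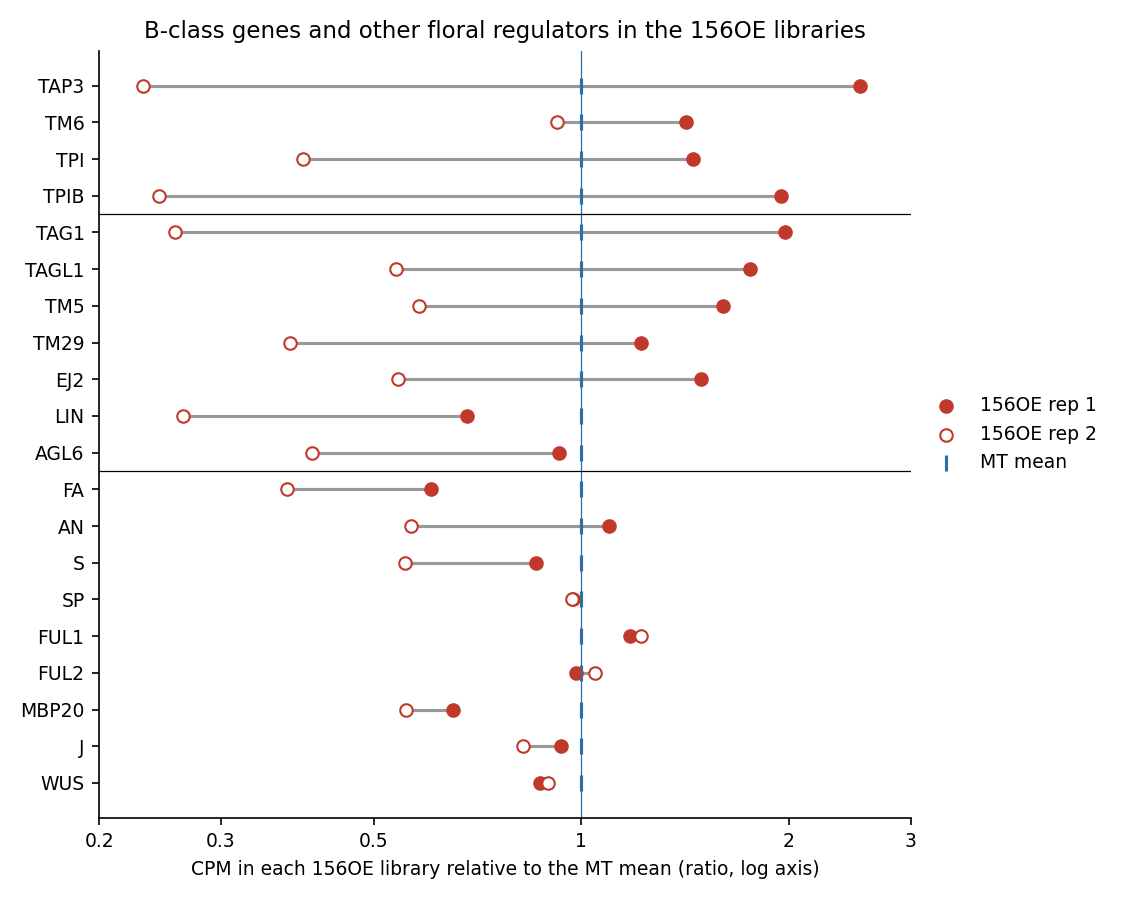
CPM in each 156OE library relative to the MT mean (horizontal axis, log scale) for the B-class genes, other floral organ identity genes and flowering regulators. Filled points are 156OE replicate 1 and open points replicate 2; TAP3 spans 0.231 to 2.54 and TM6 0.923 to 1.42, while SP, FUL1, FUL2 and WUS have nearly equal points.

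FA and AN, known to switch on B function, were both higher in 156OE replicate 1 than in replicate 2. Of these, AN alone lay on both sides of MT, as the B class did. FA (Solyc03g118160) is the tomato LEAFY gene and AN (Solyc02g081670) the counterpart of UFO, and in Arabidopsis their products together activate AP3. FA had 71.5 and 42.9 TPM in 156OE, against 132 and 115 TPM in MT, below both MT libraries in both. Its log2 change was -0.92 ± 0.20 (edgeR adjusted p = 0.295), and DESeq2 gave an adjusted p of 0.0334. AN had 80.4 and 40.2 TPM in 156OE, against 78.4 and 74.6 TPM in MT, narrowly above both MT libraries in 156OE replicate 1 and below both in replicate 2 (log2 change -0.16 ± 0.25; edgeR adjusted p = 0.844). TAP3 was highest in 156OE replicate 1, a single library, where FA was below both MT libraries and AN just above both. Whether FA or AN levels bear on that of TAP3, or whether the ratio of B-class genes to FA differs between genotypes, was not tested.

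Of 12 listed flowering and floral meristem regulators, 11 had a checked name and 10 were tested. With all libraries edgeR called 0 of the 10, beside 0.00544% of all tested genes. Without 156OE replicate 2 their log2 changes ran from -0.72 (FA) to 0.24 (FUL1). Without 156OE replicate 1 they ran from -1.70 (MBP10, with 1 read in 156OE replicate 2) to 0.47 (FUL1). The median log2 change of the 10 with all libraries was -0.13. AN was the 1 of 10 with the B-class pattern of 156OE replicate 1 above and replicate 2 below both MT libraries. Over all tested genes 17.1% showed that pattern in CPM, so the count does not set these regulators apart. The meristem gene WUS had 16.4 and 16.4 TPM in 156OE, against 22.6 and 16.6 TPM in MT. FUL1, a FRUITFULL-type gene, had 77.6 and 78.2 TPM in 156OE, against 69.9 and 67.8 TPM in MT. In TPM the 156OE replicates were level for WUS and FUL1, unlike for any B-class gene. The TMM factors were 1.03 and 0.910 in 156OE replicates 1 and 2, so with TMM scaling replicate 2 stands higher for both. WUS had 23 reads in 156OE replicate 2.

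Marker genes of other tissues were set beside the B class. The 5 shoot meristem genes summed to 303 and 222 TPM in 156OE, against 253 and 264 TPM in MT. Their log2 changes ran from -0.36 (LS) to 0.38 (TKN2) without 156OE replicate 2. Without 156OE replicate 1 they ran from -0.76 (LS) to 0.25 (CLV3). LS, a regulator of axillary meristems and the lowest of them in p, had 10.7 and 6.92 TPM in 156OE, against 14.5 and 14.03 TPM in MT (edgeR adjusted p = 0.468). Of the stamen, tapetum and pollen list, 4 of 10 names could be checked. MYB21 and LAT59 had no read in any library, and LAT52 had 1 read, in MT replicate 2. LAT56, a pollen pectate lyase gene, had 1.22 and 0.848 TPM in 156OE, against 4.71 and 3.55 TPM in MT. Its log2 change of -1.76 ± 0.39 did not pass (edgeR adjusted p = 0.302), and its 2 reads in 156OE replicate 2 are below the floor. The summed level of these 4 genes was 0.848 to 1.22 TPM in 156OE, against 3.74 to 4.71 TPM in MT. Of 5 carpel and ovary genes, 4 had a checked name and 2 were tested. CRCb had no read in 156OE and 3 and 2 reads in MT, and INO had 1 read, in MT replicate 1. These counts, like that of LAT52, are at or below the floor and show no difference between genotypes. The 4 checked carpel and ovary genes summed to 46.8 to 60.1 TPM in 156OE, against 46.9 to 51.1 TPM in MT. CRCa, a YABBY gene of the carpel, had 13.2 and 9.11 TPM in 156OE, against 2.69 and 1.52 TPM in MT (edgeR adjusted p = 0.262). The 4 checked leaf and photosynthesis genes summed to 1391 to 1824 TPM in 156OE, against 1411 to 1643 TPM in MT; RBCS3, the lowest in p, had 354 and 693 TPM in 156OE, against 213 and 209 TPM in MT (edgeR adjusted p = 0.340). The B-class pattern in CPM, 156OE replicate 1 above and replicate 2 below both MT libraries, was shown by 17.1% of all tested genes. Beside that, 3 of the 4 tested leaf genes, 1 of 5 meristem genes and 1 of 2 carpel genes showed it, and LAT56 did not. These lists are too short to be told apart from that share. Without 156OE replicate 2 the log2 changes were 0.16 to 0.81 for the leaf genes, 0.09 and 2.67 for the tested carpel genes and -1.70 for LAT56. Without 156OE replicate 1 they were -0.84 (CAB-3C) to 1.998 (RBCS3) for the leaf genes. For the tested carpel genes they were -0.011 (SPT) and 2.36 (CRCa) in that fit, and for LAT56 the log2 change was -2.01. In none of these lists did edgeR call a gene with all libraries, and the part of tissue make-up in the B-class values was not tested.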

How the data were processed

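Per the submitters' processing notes, Trimmomatic, HISAT2, Picard, SAMtools and Salmon were used, with no versions, order or genome build given in the sources used here. The authors deposited, per the file headers, Salmon estimated counts (read numbers per transcript, not normalized, often not whole) and TPM (scaled for effective length) for 33976 transcripts, 1 per gene ID, with lengths and effective lengths in bases. Estimated counts were rounded before count tests. The B-class members and all gene lists were chosen with earlier results of these data known. Names were recalled from published nomenclature and used where the RefSeq symbol lay on the ID's chromosome and within 0.03 in relative gene order: of 52 listed IDs, 38 passed, 5 failed and 9 were without an entry. The pair of PI-lineage names was kept as chosen, with their IDs.

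Two-sided quasi-likelihood tests were run in edgeR 4.0.16 under R 4.3.3, fitting genotype alone, with TMM scaling and filterByExpr, adjusted by Benjamini-Hochberg over 18385 genes at 0.05. Each standard error is the size of the unshrunk log2 change over the root of its F value. Alternatives used DESeq2 1.42.0, limma 3.58.1, other scalings, filters and pseudocounts, a replicate block and each library left out. Ratios within libraries used log2 of TPM + 0.1 and exact permutation tests. Intervals (95%) cover counting error only. Named genes were the members, the gene of lowest p in each list where no gene passed, the known partners and regulators of B-class genes, and the 5 listed genes nearest in profile; others were chosen after their values were seen. A planned look for motifs in promoters was not run.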

Additional observations from a re-analysis of the deposited data

How the results depend on the processing

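With 2 libraries per genotype and 1685657 reads in 156OE replicate 2, the direction of TAP3, TPI and TPIB was set by single libraries. Over the fits with each library left out, the log2 change ranged from -1.92 to 1.36 for TAP3, 0.067 to 0.51 for TM6, -1.16 to 0.54 for TPI and -1.84 to 0.98 for TPIB. The summed class ranged from -0.74 to 0.76, TAP3 over TM6 from -1.95 to 0.85, TPI over TPIB from -0.43 to 0.66 and the AP3 over the PI lineage from 0.07 to 1.11. Only TM6 and the last ratio kept their sign throughout these fits. For TM6 the fits with a library left out used TMM scaling alone. By library totals TM6 in 156OE replicate 2 was 0.923 times the MT mean, and in TPM 0.859 times. No fit without 156OE replicate 1 was run with those scalings. The changes turned negative with limma on log2(TPM + 1) and on log2(TPM + 0.1), at -0.34 and -0.44 for TAP3, -0.45 and -0.47 for TPI and -0.50 and -0.59 for TPIB, where the median of all genes was -0.17 and -0.19 against 0.01 in edgeR. TPI was also -0.0054 in DESeq2. TM6 was positive in every setting run. The cause of these shifts was not tested.

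Over all genes edgeR called 1 higher and 0 lower (2095 at an unadjusted p under 0.05). The counts were 57 and 28 with no low-count filter and 145 and 63 in DESeq2, and limma gave 0 higher at a pseudocount of 1 and 3 lower at 0.1. With each library left out they were 0 to 1532 higher and 0 to 466 lower. Of the listed genes outside the B class edgeR called 0, DESeq2 called 1 lower, and the fits with a library left out called 0 to 6 higher and 0 to 8 lower. The 6 came without 156OE replicate 2, where 3.45% of all tested genes were called higher. The 8 came without 156OE replicate 1, where 2.48% were called lower. Whether the listed genes differ from those shares was not tested.

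A replicate block gave log2 changes of 0.24 for TAP3, 0.30 for TM6, -0.15 for TPI and 0.03 for TPIB and called 0 genes. The ratios within libraries stayed at -0.55, 0.12 and 0.59. In a balanced layout a block cannot change a difference of group means, so for the ratios this is no check. Deviations of equally numbered libraries correlated at -0.26 across genes, so the numbers gave no sign of pairing, and a block with crossed numbers, added after seeing the data, called 0 higher and 0 lower.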
